A study of Mus musculus with 9 samples.

Results

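The genes described here are 43 regulators of chromatin and DNA methylation, listed by name with earlier results of these data known. They were read as the rows of a gene expression table whose symbol is on that list. All 43 were found among the 23420 gene symbols of the table, and all 43 passed the filter on low values. The libraries came from cultured neural stem cells of the hippocampus of 2-day-old wild type C57BL/6J mice, moved to a medium that lacks the growth factors bFGF and EGF and so lets them differentiate. There they were given NAT at 3 µM, a compound the labels describe no further than as new and small, P7C3-A20 at 3 µM, an aminopropyl carbazole known as neuroprotective, or DMSO alone as the vehicle. Each group has 3 libraries. All 9 libraries share the strain, the age and the withdrawal of growth factors. The length of the treatment is not given. Replication within a group was biological according to the labels. Whether the 3 libraries of a group came from separate cultures or animals is not stated, so the spread behind each p-value may still be technical.

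Chromatin regulators decide which genes of a stem cell can be read. DNA methyltransferases place methyl groups on cytosines and TET enzymes oxidize them. Polycomb complexes mark histone H3 at lysine 27 and histone H2A to keep developmental genes silent, while histone deacetylases and acetyltransferases remove and add acetyl groups, and SWI/SNF and CHD enzymes slide or evict nucleosomes with the energy of ATP. In the brain these proteins are known for restraining and timing the passage of neural stem cells to neurons and glia, and several exchange subunits as cells leave the cell cycle.

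None of the 43 genes was called by limma-trend at an adjusted p under 0.05 in any of the 3 comparisons. Over all 13839 genes tested, that rule called 0.0289% with NAT against DMSO, 0.0217% with P7C3-A20 against DMSO and 0.00% with NAT against P7C3-A20. Differences were small: with NAT against DMSO the 95% interval of the log2 fold change lay within ±0.5, which is 1.41-fold, for 42 of the 43 genes, with P7C3-A20 against DMSO for 41, and with NAT against P7C3-A20 for 43. The genes were well expressed and steady, from Chd4 at 311 TPM to Dnmt3b at 2.56 TPM (means over the 9 libraries). The lowest p-values were those of Dnmt1 with NAT against DMSO, Ring1 with P7C3-A20 against DMSO and Ezh2 with NAT against P7C3-A20, at adjusted p-values of 0.225, 0.191 and 0.187.

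The sequenced RNA came to between 12994081 and 13803959 recovered reads in the NAT libraries, between 15885313 and 17217584 in the P7C3-A20 libraries and between 12028821 and 14109316 in the DMSO libraries. P7C3-A20 replicate 3 stood apart in how its values followed the GC content of transcripts: its log2 values climbed by 0.114 for each 10 percentage points of GC, against 0.016 and 0.037 in the other P7C3-A20 libraries, -0.062 to 0.0070 in the NAT libraries and -0.052 to -0.0066 in the DMSO libraries. Where a gene had an unadjusted p under 0.05, a fold change that moved by over 1.5 times without this library is therefore also given without it. All 6 neural stem cell markers were detected, and their summed level was 16014 to 16409 TPM in the NAT libraries, 15492 to 16028 TPM in the P7C3-A20 libraries and 16764 to 17213 TPM in the DMSO libraries, so that the DMSO sums lay above those of both compounds. Most of this sum was Fabp7, whose log2 fold changes against DMSO were -0.097 with NAT and -0.16 with P7C3-A20. In the same order they were -0.34 and -0.12 for Hes5, -0.036 and -0.038 for Nes and -0.0095 and 0.0098 for Vim. Those of Sox2 were 0.026 and 0.064, and those of Pax6 0.056 and 0.040. Of the defining markers of other cells, 8 microglia markers summed to a mean of 0.967 TPM with NAT, 1.23 TPM with P7C3-A20 and 1.06 TPM with DMSO, 4 of them at 0 throughout, 4 endothelial markers summed to 0.320 to 0.668 TPM with 2 at 0, and 3 blood markers to 0.895 to 3.42 TPM with 2 at 0. The summed level of 8 astrocyte markers was 7834 to 8049 TPM in the NAT libraries, 7760, 7825 and 6929 TPM in the P7C3-A20 libraries and 7315 to 7661 TPM in the DMSO libraries, with every NAT library above every DMSO library and P7C3-A20 replicate 3 the lowest of all. That of 9 markers of the oligodendrocyte lineage was 3150 to 3323 TPM in the NAT libraries, 3299, 3480 and 3839 TPM in the P7C3-A20 libraries and 3313 to 3455 TPM in the DMSO libraries, with P7C3-A20 replicate 3 the highest. Olig1, at 2007 to 2530 TPM, made up most of this sum. With NAT against DMSO the log2 fold change was -0.34 for Gpr17 and -0.24 for Sox10, with every NAT library below every DMSO library (limma-trend adjusted p = 0.225 for each). The other tested markers lay between -0.12 for Pdgfra and 0.013 for Mbp. With P7C3-A20 against DMSO the values were 0.033 for Gpr17 and 0.077 for Sox10, and the others lay between -0.11 for Pdgfra and 0.26 for Mbp. The part of these marker shifts in the values of the 43 genes was not tested. Since these are bulk samples, fewer cells of a type and less RNA per cell cannot be told apart.

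The promoter sequences below show the start regions of 3 Polycomb genes picked by name: Ezh2 and Ezh1, alternative catalytic subunits of the same complex that differ widely in level here, and Suz12, their shared partner. The Ezh2 and Suz12 windows were required to hold a match to the words searched below, and the Ezh1 window was not. They are RefSeq windows of 300 bases on assembly GRCm38.p6, reaching from 250 bases before to 50 bases after the start of the gene and read in the direction of the gene. Capitals mark matches to an E2F-like word. E2F factors are known to drive genes of the cell cycle.
Ezh2, chr6:47594981-47595280, minus strand: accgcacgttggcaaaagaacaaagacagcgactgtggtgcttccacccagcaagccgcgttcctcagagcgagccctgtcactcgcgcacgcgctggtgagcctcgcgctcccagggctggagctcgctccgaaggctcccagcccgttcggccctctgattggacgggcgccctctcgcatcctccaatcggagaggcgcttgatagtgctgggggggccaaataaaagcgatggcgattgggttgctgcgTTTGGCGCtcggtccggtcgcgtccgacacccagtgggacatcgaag
Suz12, chr11:79992856-79993155, plus strand: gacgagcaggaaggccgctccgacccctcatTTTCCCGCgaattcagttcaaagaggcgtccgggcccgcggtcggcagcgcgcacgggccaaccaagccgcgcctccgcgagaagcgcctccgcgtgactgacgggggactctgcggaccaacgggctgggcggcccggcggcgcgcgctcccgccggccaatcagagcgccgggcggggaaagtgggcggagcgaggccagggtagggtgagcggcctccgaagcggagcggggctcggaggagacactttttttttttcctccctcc
Ezh1, chr11:101226414-101226713, minus strand: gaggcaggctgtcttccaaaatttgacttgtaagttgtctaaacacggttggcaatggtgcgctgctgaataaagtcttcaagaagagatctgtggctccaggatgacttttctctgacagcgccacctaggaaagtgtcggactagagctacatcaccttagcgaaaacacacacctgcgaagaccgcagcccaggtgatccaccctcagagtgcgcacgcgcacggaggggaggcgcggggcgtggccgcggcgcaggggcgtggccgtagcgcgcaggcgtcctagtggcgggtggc
The words searched, on both strands, were TTTCCCGC, TTTCGCGC, TTTGCCGC and TTTGGCGC, which differ from each other at 2 inner letters and were chosen after the values had been seen. The Ezh2 window held TTTGGCGC from base 254, and the Suz12 window held TTTCCCGC from base 32. No such word lay in the Ezh1 window, nor in the windows of the Polycomb genes Ring1, Rnf2, Bmi1 and Eed, which are not shown. Windows were found for 37 of the 43 genes, and 4 of these (Arid1a, Dnmt1, Ezh2 and Suz12) held a match in at least 1 window, which is 10.8%, against 4.64% of the 10050 tested genes with a window and 2.61% of all 27025 genes in the promoter table. Such a match describes the letters and says nothing of binding. The windows were also rich in CG dinucleotides, the sites of DNA methylation in mammals: the Ezh2, Suz12 and Ezh1 windows held 31, 41 and 23, and the median over the 49 windows of these 37 genes was 28, against 20 in the windows of tested genes and 7 in all windows.

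**Figure D1:**
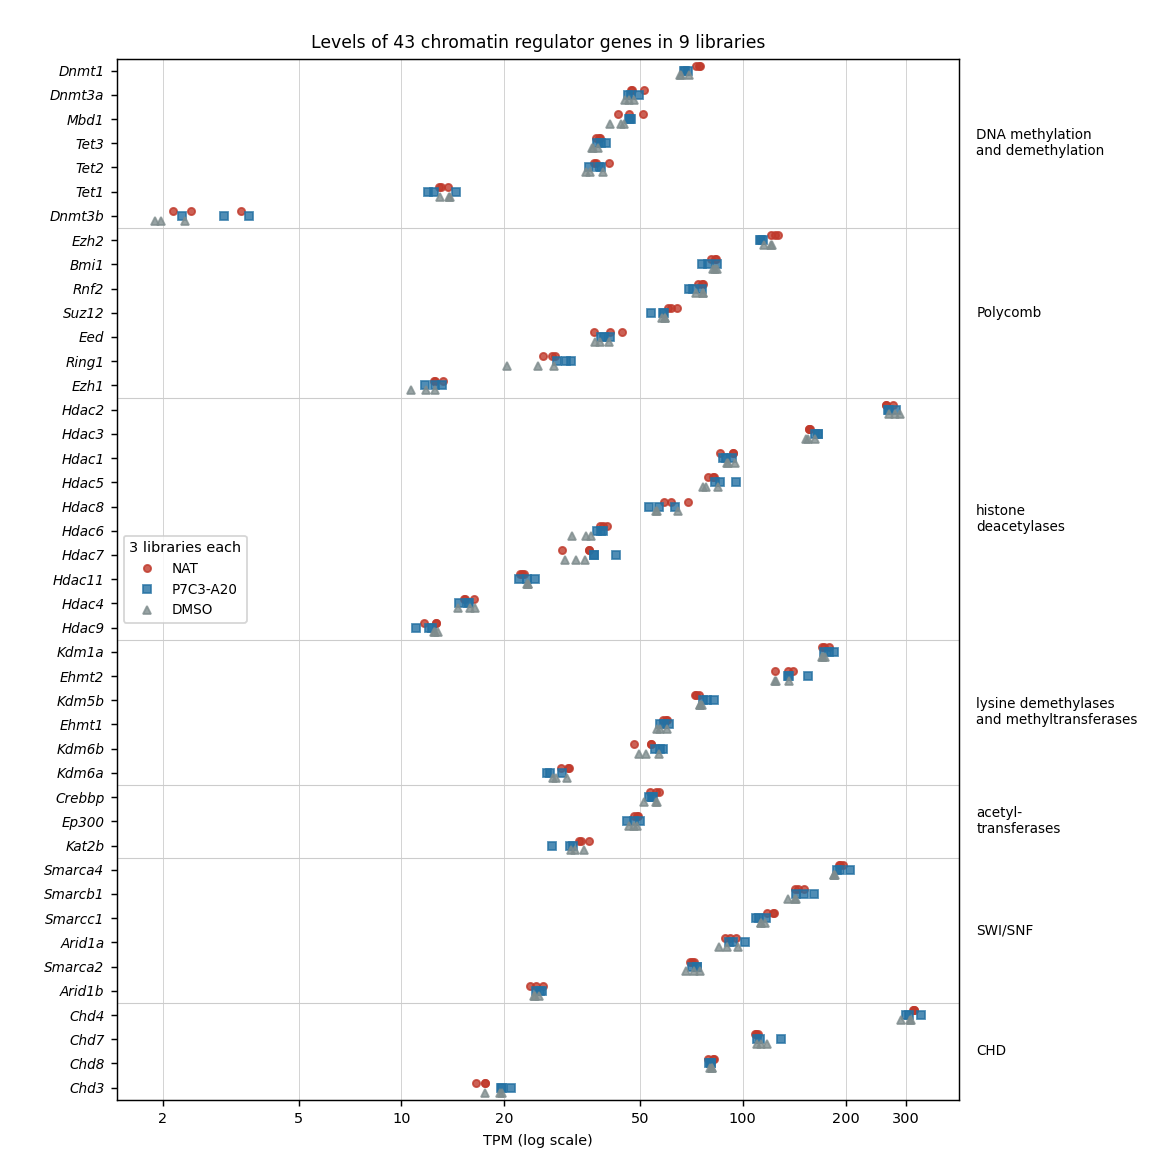
Level of each of the 43 genes in each of the 9 libraries, in TPM on a log axis, by role and by mean level within a role. Points are single libraries of NAT, P7C3-A20 and DMSO. Most genes lie between 10 and 300 TPM with their 9 points close together, and Dnmt3b stands alone near 2 TPM with the widest relative spread.

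Levels are given in TPM, transcript abundances scaled for gene length and library total, which may be set against each other between genes. The median of the mean levels of the 43 genes was 58.6 TPM, against 26.4 TPM over all genes tested, and 35 of the 43 lay above that median. The plot of levels by role shows their order: Chd4, Hdac2, Smarca4, Kdm1a and Hdac3 led, and Dnmt3b, Hdac9, Ezh1, Tet1 and Hdac4 were the lowest. The order of neighbours within a few percent, such as Chd8 at 80.8 TPM and Bmi1 at 81.6 TPM, is within their spread. Spread between libraries of a group was small, with a median residual SD of 0.057 on the log2 scale over the 43 genes and 0.083 over all genes tested. These values were not matched for level, which was lower over all genes.

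Among the genes of DNA methylation, the maintenance methyltransferase Dnmt1 was the most abundant, and Dnmt3b, a de novo methyltransferase, was the lowest of all 43 genes. Dnmt1 had 74.7, 74.6 and 73.0 TPM in the NAT libraries, 67.3, 67.7 and 69.3 TPM in the P7C3-A20 libraries and 69.4, 65.7 and 66.0 TPM in the DMSO libraries. The NAT libraries were all above the others, and the P7C3-A20 and DMSO libraries overlapped. The log2 fold change of Dnmt1 was 0.14 ± 0.036 (SE) with NAT against DMSO (limma-trend adjusted p = 0.225), 0.023 ± 0.036 with P7C3-A20 against DMSO (adjusted p = 0.789) and 0.12 ± 0.036 with NAT against P7C3-A20 (adjusted p = 0.206), so no comparison passed the threshold. Once each library's trend with GC content had been removed, the fold change was 0.12 with NAT against DMSO and 0.15 with NAT against P7C3-A20. In the comparison of NAT with P7C3-A20 it was 0.13 without P7C3-A20 replicate 3. With NAT against DMSO, voom on the recovered reads, described further on, called Dnmt1 only when that library was left out. The voom fold was then 0.14 (voom adjusted p = 0.0311).

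Markers of dividing cells were read beside these genes. All 10 of 10 listed markers, among them Mki67 and Top2a, were detected, and their summed level was 1146, 1104 and 1131 TPM in the NAT libraries, 1023, 1008 and 952 TPM in the P7C3-A20 libraries and 1143, 1056 and 985 TPM in the DMSO libraries. NAT and P7C3-A20 libraries did not overlap in this sum, while the DMSO libraries spanned both. By gene, all 10 log2 fold changes with NAT against DMSO were above 0, from 0.0063 for Cdk1 to 0.201 for Mcm2. For Pcna (0.11) and Birc5 (0.14) every NAT library was above every DMSO library, and for the other markers these groups overlapped. With P7C3-A20 against DMSO the values lay between -0.201 for Mki67 and 0.055 for Birc5. Limma-trend called none of these markers in either comparison. The part of dividing cells in the values of Dnmt1, and in those of Ezh2, Suz12, Smarcc1 and Uhrf1 given further on, was not tested.

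Dnmt3b had 2.14, 3.39 and 2.42 TPM in the NAT libraries, 3.57, 3.01 and 2.28 TPM in the P7C3-A20 libraries and 1.90, 2.32 and 1.98 TPM in the DMSO libraries, which are 38 to 89 reads per library. Its P7C3-A20 and DMSO libraries overlapped, and its log2 fold change of 0.36 ± 0.17 with P7C3-A20 against DMSO had a 95% interval of -0.0073 to 0.72 (limma-trend adjusted p = 0.323), the widest of the 43 genes. The overlap rests on P7C3-A20 replicate 3, without which the fold was 0.48, and voom on the recovered reads, described further on, then gave 0.67 (voom adjusted p = 0.0464), against 0.51 with all libraries (voom adjusted p = 0.133). The fold is on the log2(TPM + 1) scale, which understates changes of genes this low. Dnmt3a, the other de novo enzyme, had 47.4, 47.2 and 51.4 TPM in the NAT libraries, 49.7, 46.0 and 47.0 TPM in the P7C3-A20 libraries and 45.2, 46.4 and 47.9 TPM in the DMSO libraries. Its 3 groups overlapped, and the ratio of Dnmt3a to Dnmt3b was 19.1 ± 4.49 in the NAT libraries, 16.6 ± 3.51 in the P7C3-A20 libraries and 22.6 ± 2.34 in the DMSO libraries (SD, n = 3 each). The TET dioxygenases Tet1, Tet2 and Tet3 and the methyl-CpG binding protein Mbd1 averaged 13.3, 37.3, 37.7 and 45.6 TPM, and their log2 fold changes lay between -0.061 for Tet1 and 0.11 for Mbd1, both with P7C3-A20 against DMSO. Mbd1 was above every DMSO library in all 3 P7C3-A20 libraries, at an adjusted p of 0.393 by limma-trend. Together the 7 genes of this role summed to 255 to 269 TPM in the NAT libraries, 251 to 259 TPM in the P7C3-A20 libraries and 242 to 251 TPM in the DMSO libraries.

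In the Polycomb group, Ezh2 and Ring1 had the lowest p-values, Ezh2 with its lowest levels and Ring1 with its highest in the P7C3-A20 libraries. Ezh2, the histone H3 lysine 27 methyltransferase of proliferating cells, had 127, 121 and 124 TPM in the NAT libraries, 114, 112 and 113 TPM in the P7C3-A20 libraries and 121, 122 and 115 TPM in the DMSO libraries. Every P7C3-A20 library was below every NAT and every DMSO library, and NAT and DMSO overlapped. The log2 fold change was 0.13 ± 0.035 with NAT against P7C3-A20 (limma-trend adjusted p = 0.187), -0.074 ± 0.035 with P7C3-A20 against DMSO (adjusted p = 0.329) and 0.055 ± 0.035 with NAT against DMSO (adjusted p = 0.554). The NAT against P7C3-A20 value was 0.13 also without P7C3-A20 replicate 3, and 0.062 once each library's trend with GC content had been removed. Ezh1, the paralogue of Ezh2 that is known to prevail in cells that no longer divide, had 12.6, 13.2 and 12.4 TPM in the NAT libraries, 13.1, 12.5 and 11.7 TPM in the P7C3-A20 libraries and 11.8, 10.7 and 12.5 TPM in the DMSO libraries, with overlap between all 3 groups. Ezh2 exceeded Ezh1 by 9.15 to 10.1 times in the NAT libraries, 8.72 to 9.67 times in the P7C3-A20 libraries and 9.20 to 11.4 times in the DMSO libraries.

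Suz12, the scaffold subunit that both enzymes need, had 61.7, 60.2 and 64.3 TPM in the NAT libraries, 58.6, 59.0 and 53.7 TPM in the P7C3-A20 libraries and 59.1, 59.1 and 57.9 TPM in the DMSO libraries. Its NAT libraries were above all others, with a log2 fold change of 0.12 ± 0.045 against P7C3-A20 (limma-trend adjusted p = 0.256) and 0.078 ± 0.045 against DMSO (adjusted p = 0.509). The first of these was 0.077 without P7C3-A20 replicate 3 and 0.034 with the GC trend removed. Eed, the subunit that binds the H3 lysine 27 mark, averaged 39.5 TPM with log2 fold changes from 0.032 to 0.070 over the 3 comparisons.

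Ring1, an E3 ligase that ubiquitinates histone H2A in the other Polycomb complex, had 26.0, 27.5 and 28.1 TPM in the NAT libraries, 28.5, 31.4 and 30.4 TPM in the P7C3-A20 libraries and 20.4, 25.2 and 28.0 TPM in the DMSO libraries. The P7C3-A20 libraries were all above the DMSO libraries, of which replicate 1 was the lowest, and above the NAT libraries. With P7C3-A20 against DMSO its log2 fold change was 0.30 ± 0.093, a 95% interval of 0.090 to 0.50 (limma-trend adjusted p = 0.191). It was 0.18 without DMSO replicate 1, 0.29 without P7C3-A20 replicate 3 and 0.21 with the GC trend removed. Its partner ligase Rnf2 and the oncogene Bmi1, which is known to sustain self-renewal of neural stem cells, averaged 74.4 and 81.6 TPM. Rnf2 had log2 fold changes of 0.0070, -0.052 and 0.059 in the comparisons of NAT with DMSO, P7C3-A20 with DMSO and NAT with P7C3-A20. Those of Bmi1 were -0.0084, -0.061 and 0.052.

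**Figure D2:**
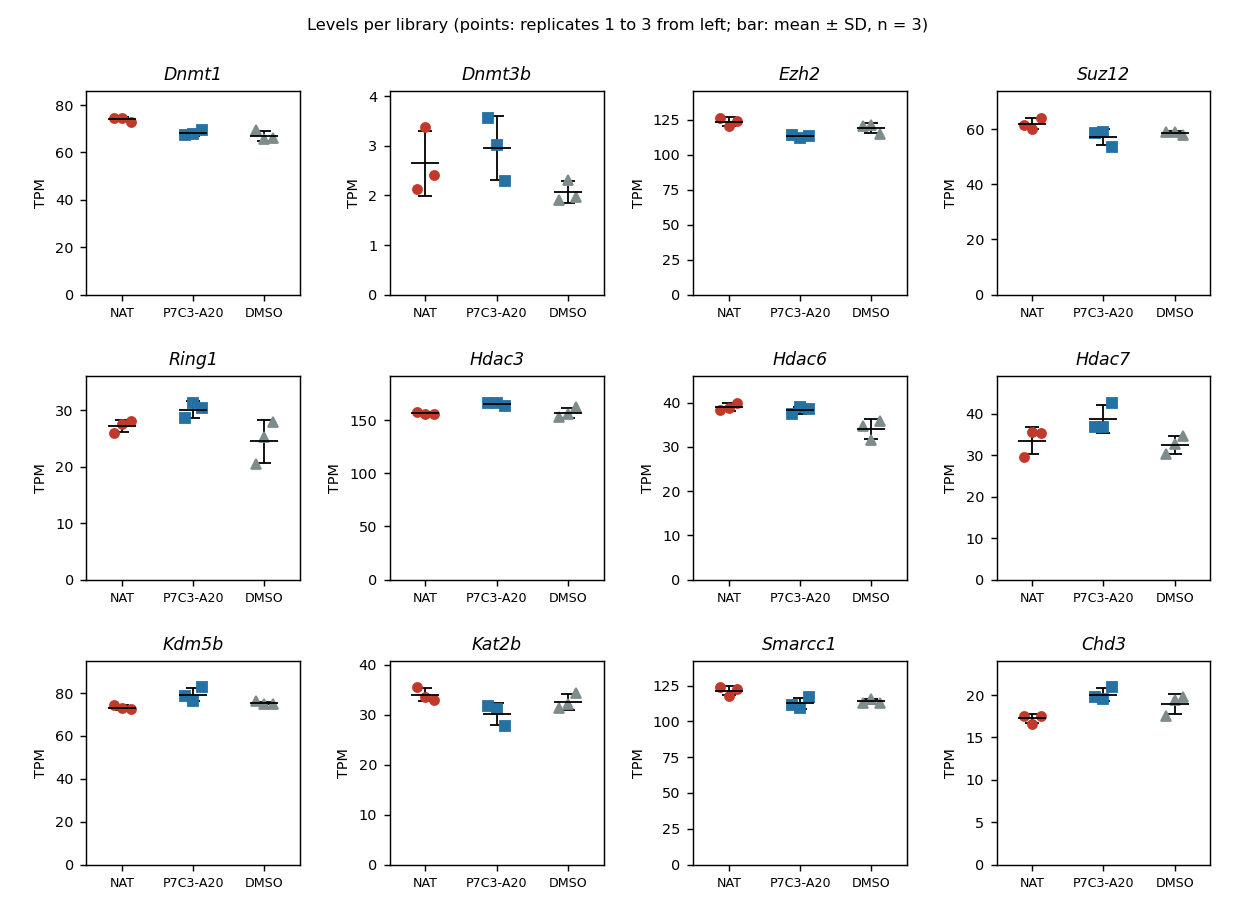
Level of 12 of the 43 genes in each library, in TPM on linear axes that start at 0, for NAT, P7C3-A20 and DMSO, with points for replicates 1 to 3 and bars for the mean ± SD (n = 3). Dnmt1 and Smarcc1 are highest in the NAT libraries, Ezh2 is lowest and Ring1 highest in the P7C3-A20 libraries, and Hdac6 is lowest in the DMSO libraries, with differences that are small against the level of each gene.

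Of the 10 histone deacetylases, Hdac2, a class I enzyme of corepressor complexes, was the most abundant, and Hdac6, a class IIb enzyme best known for deacetylating tubulin in the cytoplasm, had the lowest p against DMSO with either compound. Hdac6 had 38.3, 38.8 and 40.1 TPM in the NAT libraries, 37.4, 39.0 and 38.5 TPM in the P7C3-A20 libraries and 34.8, 31.6 and 36.0 TPM in the DMSO libraries. Its DMSO libraries were below all others, and NAT and P7C3-A20 overlapped. Its log2 fold change was 0.19 ± 0.052 with NAT against DMSO (limma-trend adjusted p = 0.260) and 0.16 ± 0.052 with P7C3-A20 against DMSO (adjusted p = 0.193). Both values rest on the same DMSO libraries. Between the compounds the difference was 0.028 ± 0.052, with a 95% interval of -0.088 to 0.14. Without P7C3-A20 replicate 3 the P7C3-A20 against DMSO value was 0.16, and with the GC trend removed the values against DMSO were 0.16 with NAT and 0.12 with P7C3-A20.

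Hdac3, the catalytic subunit of the NCoR and SMRT corepressors, had 157, 156 and 156 TPM in the NAT libraries, 167, 166 and 163 TPM in the P7C3-A20 libraries and 153, 155 and 162 TPM in the DMSO libraries. Its P7C3-A20 libraries were all above the NAT and DMSO libraries. In log2 terms the difference was 0.077 ± 0.032 with P7C3-A20 against DMSO (limma-trend adjusted p = 0.277) and -0.081 ± 0.032 with NAT against P7C3-A20 (adjusted p = 0.267). Without P7C3-A20 replicate 3 these were 0.086 and -0.090. With the GC trend removed they were 0.081 and -0.12. Hdac2 had 274, 263 and 263 TPM in the NAT libraries, 269, 267 and 282 TPM in the P7C3-A20 libraries and 288, 280.0 and 267 TPM in the DMSO libraries, with overlap between all groups. Its log2 fold change with NAT against P7C3-A20 was -0.030, and -0.11 with the GC trend removed. It was -0.058 with the GC trend removed and P7C3-A20 replicate 3 left out. Hdac2 exceeded its close paralogue Hdac1 by 2.81 to 3.21 times in the NAT libraries, 2.88 to 3.22 times in the P7C3-A20 libraries and 2.96 to 3.17 times in the DMSO libraries.

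Class IIa deacetylases shuttle between nucleus and cytoplasm. Of these, Hdac7 had 29.6, 35.5 and 35.4 TPM in the NAT libraries, 36.7, 36.7 and 42.7 TPM in the P7C3-A20 libraries and 30.2, 32.6 and 34.5 TPM in the DMSO libraries, and every P7C3-A20 library was above every other library. Its log2 fold change was 0.25 ± 0.083 with P7C3-A20 against DMSO (limma-trend adjusted p = 0.208) and -0.20 ± 0.083 with NAT against P7C3-A20 (adjusted p = 0.278). The highest of its libraries was P7C3-A20 replicate 3, without which the values were 0.18 and -0.13. With the GC trend removed they were 0.14 and -0.13, and without NAT replicate 1 the second was -0.12. Hdac5 had 81.6, 82.5 and 79.0 TPM in the NAT libraries, 82.7, 85.5 and 95.4 TPM in the P7C3-A20 libraries and 78.1, 76.4 and 84.8 TPM in the DMSO libraries, where P7C3-A20 overlapped DMSO, with a log2 fold change of 0.14 ± 0.056 in that comparison (adjusted p = 0.277), 0.076 without P7C3-A20 replicate 3 and 0.033 with the GC trend removed. Hdac4 and Hdac9, the remaining class IIa members, averaged 15.6 and 12.2 TPM. Hdac4 differed by at most 0.023 on the log2 scale in any comparison. Hdac9 was below every DMSO library in the 3 P7C3-A20 libraries, with a log2 fold change of -0.090 ± 0.067 (adjusted p = 0.530). Hdac1, Hdac8 and Hdac11 averaged 90.8, 59.9 and 23.1 TPM, with adjusted p-values of at least 0.453 in all comparisons. Deacetylase levels summed to 778 to 787 TPM in the NAT libraries, 794 to 812 TPM in the P7C3-A20 libraries and 779 to 791 TPM in the DMSO libraries.

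Histone lysine demethylases and methyltransferases were led by Kdm1a, the histone H3 lysine 4 demethylase also known as LSD1, with 173, 171 and 179 TPM in the NAT libraries, 172, 179 and 184 TPM in the P7C3-A20 libraries and 170.4, 172 and 174 TPM in the DMSO libraries. Its log2 fold change was 0.020 ± 0.034 with NAT against DMSO and 0.053 ± 0.034 with P7C3-A20 against DMSO, and the groups overlapped in both comparisons. Kdm5b, which removes trimethylation of histone H3 lysine 4, had 74.4, 72.9 and 72.4 TPM in the NAT libraries, 78.8, 76.5 and 82.6 TPM in the P7C3-A20 libraries and 76.1, 74.9 and 75.1 TPM in the DMSO libraries. Here the order of the groups was complete: every P7C3-A20 library was above every DMSO library, and every DMSO library above every NAT library. Its log2 fold change was -0.11 ± 0.037 with NAT against P7C3-A20 (limma-trend adjusted p = 0.220), 0.072 ± 0.037 with P7C3-A20 against DMSO (adjusted p = 0.374) and -0.040 ± 0.037 with NAT against DMSO (adjusted p = 0.706). Without P7C3-A20 replicate 3 the first was -0.083, and with the GC trend removed it was -0.14.

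Ehmt2, the histone H3 lysine 9 methyltransferase known as G9a, had 124, 141 and 136 TPM in the NAT libraries, 136, 137 and 155 TPM in the P7C3-A20 libraries and 125, 124 and 136 TPM in the DMSO libraries. P7C3-A20 and DMSO overlapped, P7C3-A20 replicate 3 was the highest library, and the log2 fold change of 0.15 ± 0.063 (limma-trend adjusted p = 0.284) was 0.085 without it and 0.041 with the GC trend removed. Its heterodimer partner Ehmt1 averaged 58.6 TPM with log2 fold changes of 0.037 and 0.028 for NAT and P7C3-A20 against DMSO. The X-linked H3 lysine 27 demethylase Kdm6a had 31.0, 29.3 and 30.8 TPM in the NAT libraries, 27.3, 29.6 and 26.7 TPM in the P7C3-A20 libraries and 27.9, 30.6 and 28.3 TPM in the DMSO libraries, with a log2 fold change of 0.12 ± 0.056 with NAT against P7C3-A20 (adjusted p = 0.322) and overlap between those groups. Kdm6b, a demethylase of the same mark, had a log2 fold change of the other sign in that comparison, -0.13 ± 0.059 (adjusted p = 0.312), and its NAT libraries were all below its P7C3-A20 libraries. With the GC trend removed the pair stood at 0.042 for Kdm6a and -0.056 for Kdm6b. Without NAT replicate 1 the value of Kdm6b was -0.077, and without P7C3-A20 replicate 3 it was -0.11. Kdm6a transcripts have a GC content of 42.5% and Kdm6b transcripts one of 59.6%.

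None of the 3 acetyltransferases had an unadjusted p under 0.05 against DMSO with either compound. Crebbp, the coactivator CBP, had 53.6, 55.8 and 56.7 TPM in the NAT libraries, 54.2, 53.1 and 54.4 TPM in the P7C3-A20 libraries and 51.3, 55.9 and 55.7 TPM in the DMSO libraries, and its log2 fold changes were 0.029 with NAT against DMSO, -0.0086 with P7C3-A20 against DMSO and 0.037 with NAT against P7C3-A20. Its paralogue Ep300 averaged 48.1 TPM, with 0.029, 0.0013 and 0.027 in the same order. Kat2b, the acetyltransferase PCAF, had 35.5, 33.5 and 33.1 TPM in the NAT libraries, 31.8, 31.1 and 27.7 TPM in the P7C3-A20 libraries and 31.3, 32.2 and 34.4 TPM in the DMSO libraries. NAT libraries were all above P7C3-A20 libraries, of which replicate 3 was the lowest. Between these groups its log2 fold change was 0.17 ± 0.061 with NAT against P7C3-A20 (limma-trend adjusted p = 0.240), and 0.11 without that replicate. With the GC trend removed it was 0.13.

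Among SWI/SNF genes, the ATPase Smarca4, also called BRG1 and known to be needed for neural stem cells, had 191, 197 and 193 TPM in the NAT libraries, 189, 193 and 206 TPM in the P7C3-A20 libraries and 185, 185 and 186 TPM in the DMSO libraries. Its DMSO libraries were within 1 TPM of each other and below all libraries of both compounds. Its log2 fold change was 0.064 ± 0.035 with NAT against DMSO (limma-trend adjusted p = 0.493) and 0.079 ± 0.035 with P7C3-A20 against DMSO (adjusted p = 0.311). The P7C3-A20 value was 0.043 without P7C3-A20 replicate 3, 0.0017 with the GC trend removed and -0.019 with both. The alternative ATPase Smarca2 had 72.1, 70.2 and 70.8 TPM in the NAT libraries, 73.6, 70.9 and 73.4 TPM in the P7C3-A20 libraries and 68.3, 72.2 and 74.7 TPM in the DMSO libraries, with overlap between all groups. Smarca4 exceeded Smarca2 by 2.65 to 2.81 times in the NAT libraries, 2.57 to 2.81 times in the P7C3-A20 libraries and 2.49 to 2.71 times in the DMSO libraries.

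Smarcc1, the core subunit BAF155, had 124, 118 and 123 TPM in the NAT libraries, 111, 109 and 117 TPM in the P7C3-A20 libraries and 113, 116 and 113 TPM in the DMSO libraries. All its NAT libraries were above all others. Against DMSO and P7C3-A20 the log2 fold change was 0.089 ± 0.036 (limma-trend adjusted p = 0.390) and 0.11 ± 0.036 (adjusted p = 0.218), the first being 0.059 with the GC trend removed and the second 0.14 without P7C3-A20 replicate 3. With the GC trend removed the second was 0.088. Smarcb1, a core subunit and tumour suppressor, had 151, 145 and 142 TPM in the NAT libraries, 143, 151 and 162 TPM in the P7C3-A20 libraries and 142, 144 and 135 TPM in the DMSO libraries. P7C3-A20 and DMSO overlapped, and the log2 fold change of 0.11 ± 0.047 (adjusted p = 0.283) was 0.066 without P7C3-A20 replicate 3 and 0.095 with the GC trend removed. Arid1a and Arid1b, which occupy the same place in alternative forms of the complex, averaged 92.7 and 25.0 TPM, and no log2 fold change of either exceeded 0.074 in size.

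The CHD group held the most abundant of the 43 genes, Chd4, and the one with the most negative fold change between the compounds, Chd3. Chd4, the ATPase of the NuRD complex, had 315, 318 and 317 TPM in the NAT libraries, 306, 301 and 333 TPM in the P7C3-A20 libraries and 291, 310.2 and 308 TPM in the DMSO libraries, with log2 fold changes of 0.064 ± 0.041 with NAT and 0.046 ± 0.041 with P7C3-A20 against DMSO (limma-trend adjusted p = 0.567 and 0.612). The NAT libraries of Chd4 were above all DMSO libraries, and the P7C3-A20 libraries were not. Chd3, an alternative NuRD ATPase known to take the place of Chd4 in maturing neurons, had 17.5, 16.6 and 17.6 TPM in the NAT libraries, 19.7, 19.6 and 20.9 TPM in the P7C3-A20 libraries and 17.6, 19.5 and 19.8 TPM in the DMSO libraries. Its NAT libraries were below every library of the other groups. For Chd3 the log2 fold change was -0.21 ± 0.061 with NAT against P7C3-A20 (adjusted p = 0.203) and -0.13 ± 0.061 with NAT against DMSO (adjusted p = 0.447). The first was -0.18 without P7C3-A20 replicate 3 and -0.16 with the GC trend removed. Chd7 and Chd8, remodellers mutated in neurodevelopmental disorders, averaged 113 and 80.8 TPM. Chd8 was the steadiest of the 43 genes, its highest library being 1.04 times its lowest.

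**Figure D3:**
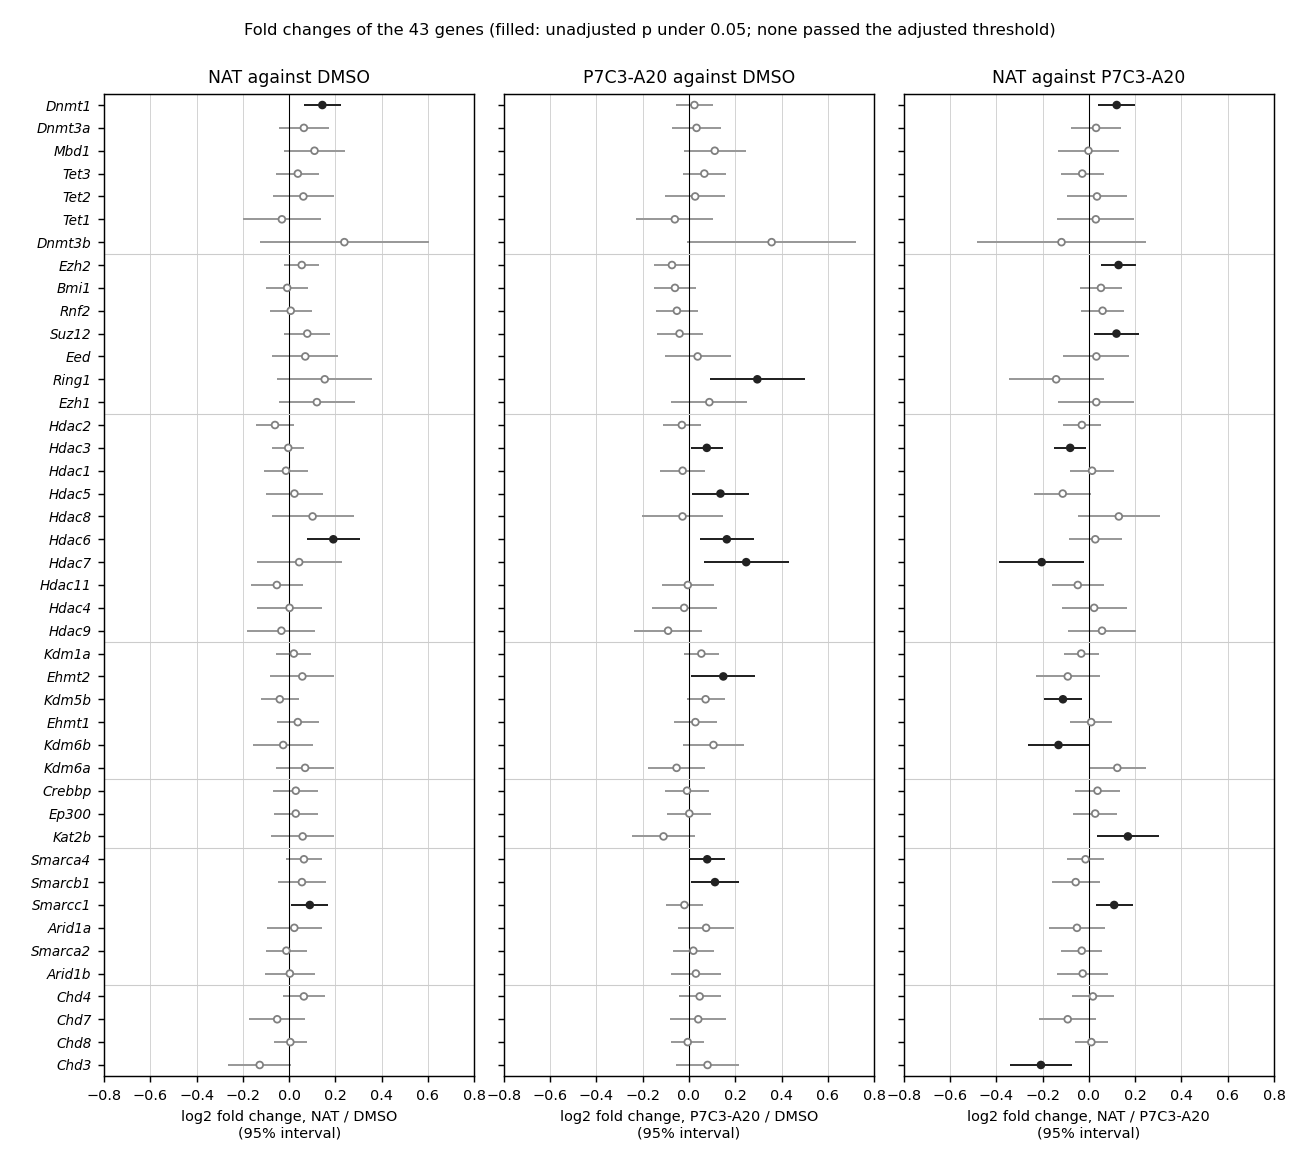
Log2 fold change on the log2(TPM + 1) scale with its 95% interval for each of the 43 genes in 3 panels, NAT against DMSO, P7C3-A20 against DMSO and NAT against P7C3-A20, in the order of the plot of levels. Filled points have an unadjusted p under 0.05, which 3, 8 and 10 genes reached. Apart from those of Dnmt3b and Ring1, the intervals lie within ±0.5.

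Counts over the 43 genes were set beside the same counts over all genes tested. With NAT against DMSO the unadjusted p was under 0.05 for 3 of the 43 genes, 3 higher and 0 lower, against 11.7% of all genes, 8.67% higher and 3.00% lower. With P7C3-A20 against DMSO 8 genes were higher and 0 lower, among them 4 deacetylases, against 15.9% of all genes, 10.7% higher and 5.12% lower. With NAT against P7C3-A20 5 were higher and 5 lower, against 15.8% of all genes (2188 genes), 9.92% higher and 5.89% lower. The 8 higher genes with P7C3-A20 are 18.6% of the 43 and the 5 lower genes between the compounds 11.6%, and the other counts are near the share of all genes or under it. Both counts were smaller with the GC trend of each library removed, and the share of all genes fell beside the first count but not beside the second. In the comparison of P7C3-A20 with DMSO 4 genes, 9.30% of the 43, were then higher, Ring1, Hdac3, Hdac6 and Hdac7, and 0 lower, against 5.66% and 5.37% of all genes. With NAT against P7C3-A20 3 were higher and 4 lower, against 5.81% and 5.90%, and with NAT against DMSO 2 were higher and 1 lower, against 5.85% and 6.19%. Without P7C3-A20 replicate 3 the 8 higher genes were 4, against 8.79% of all genes. Log2 fold changes were above 0 for 31, 27 and 23 of the 43 genes in the order NAT against DMSO, P7C3-A20 against DMSO and NAT against P7C3-A20, against 63.5%, 55.2% and 54.0% of all genes.

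Genes whose groups did not overlap were counted in the same way. With NAT against DMSO 6 genes had every NAT library above every DMSO library and 3 had them below, against 14.1% and 4.89% of all genes. With P7C3-A20 against DMSO these were 7 and 2 genes, against 13.1% and 7.49%, and with NAT against P7C3-A20 they were 5 and 7, against 13.3% and 8.35%. The median log2 fold change of the 43 genes was 0.037, 0.030 and 0.011 in these comparisons, beside 0.030, 0.015 and 0.011 over all genes tested. All 3 comparisons share libraries in pairs, so their counts are not independent of each other.

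A model that weights genes by the reads recovered from the TPM values (limma voom) called more genes, 36 with NAT against DMSO, 468 with P7C3-A20 against DMSO and 254 with NAT against P7C3-A20, which are 0.260%, 3.38% and 1.84% of the genes tested. Of the 43 genes it called 0, 2 and 1. Ring1 and Hdac7 were higher with P7C3-A20 against DMSO, with log2 fold changes of 0.32 ± 0.088 (voom adjusted p = 0.0451) and 0.27 ± 0.068 (voom adjusted p = 0.0318). Chd3 was lower with NAT against P7C3-A20, at -0.24 ± 0.056 (voom adjusted p = 0.0322). None of the 3 calls held when each library's GC trend was removed, with folds of 0.21 for Ring1, 0.14 for Hdac7 and -0.16 for Chd3 at voom adjusted p-values of 0.252, 0.265 and 0.149, where voom called 0.401%, 0.358% and 0.474% of all genes in the 3 comparisons and none of the 43. Without P7C3-A20 replicate 3 the voom folds of Ring1, Hdac7 and Chd3 were 0.30, 0.19 and -0.21 at adjusted p-values of 0.0707, 0.0957 and 0.0986. Without DMSO replicate 1 those of Ring1 and Hdac7 were 0.19 and 0.21, at 0.364 and 0.232. Other calls were lost with folds of similar size. Without DMSO replicate 2 Ring1 stood at 0.34 and Hdac7 at 0.27, with adjusted p-values of 0.121 and 0.115. Ring1 stood at 0.28 without P7C3-A20 replicate 2 (voom adjusted p = 0.122) and at 0.32 without NAT replicate 2 or 3 (0.0629 and 0.0601). Chd3 stood at -0.25, -0.22 and -0.25 without NAT replicate 1, 2 or 3 (0.153, 0.0908 and 0.109).

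**Figure D4:**
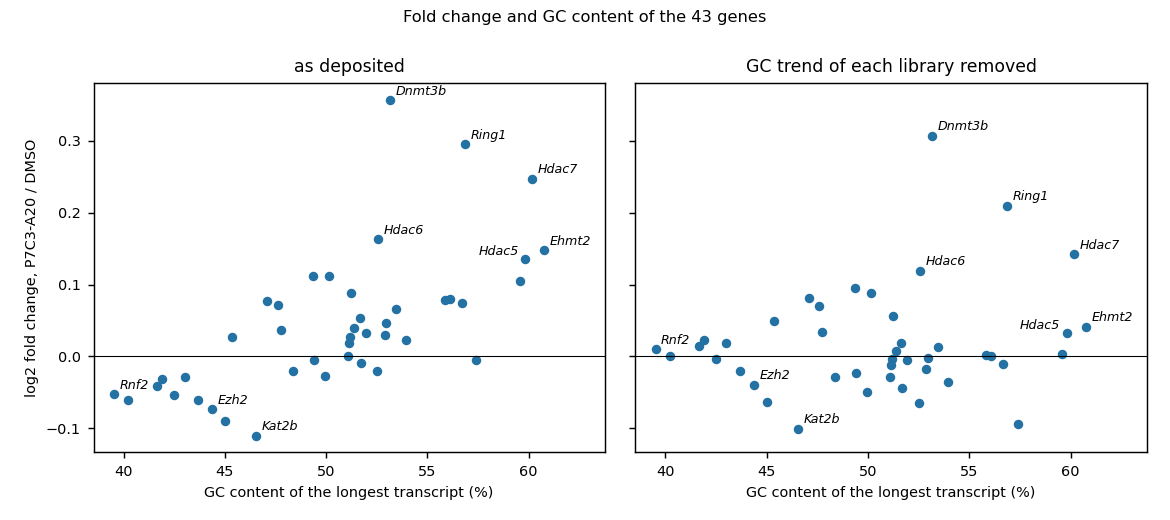
Log2 fold change of the 43 genes with P7C3-A20 against DMSO against the GC content of the longest transcript in percent, as deposited on the left and with each library's trend with GC content removed on the right. On the left the points climb with GC content (Spearman's rho 0.720 across genes). On the right they do not (0.107), because the removal takes out such a trend by construction.

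How the 43 genes varied among themselves went with the GC content of their transcripts in the comparisons that involve P7C3-A20. Across the genes, Spearman's rho between GC content and log2 fold change was 0.720 with P7C3-A20 against DMSO, 0.075 with NAT against DMSO and -0.646 with NAT against P7C3-A20. Over all 13701 tested genes with a GC content it was 0.479, 0.0066 and -0.470. These values are across genes, which share the libraries and are not independent replicates. Hdac7 and Ehmt2, at 60.2% and 60.8% GC, had positive values with P7C3-A20 against DMSO, and Bmi1 and Rnf2, at 40.2% and 39.5%, had negative ones. Once each library's trend had been removed, the median log2 fold change of the 43 genes was 0.0096, 0.0017 and -0.0020 in the order NAT against DMSO, P7C3-A20 against DMSO and NAT against P7C3-A20. Over all genes it was then 0.0017, -0.00099 and 0.00085, since the removal also brings every library to the same mean log2 value. Fold changes with NAT against DMSO, which hardly followed GC content, are shifted by this step as well. The plot of fold change by GC content shows both states. Why P7C3-A20 replicate 3 followed GC content more steeply was not tested. The slopes of the other P7C3-A20 libraries, 0.016 and 0.037, were also above those of all NAT and DMSO libraries, of which the highest was 0.0070. The GC trend and the treatment with P7C3-A20 therefore cannot be told apart here. Removing the trend would also remove any effect of the compound that follows GC content.

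Other genes of the same pathways were read from a longer list. Of 139 further subunits, writers, readers and erasers listed by complex, 137 were matched to the table and 135 passed the filter on low values. Limma-trend called 0 of 135 in each of the 3 comparisons. At an unadjusted p under 0.05 there were 10 higher and 0 lower with NAT against DMSO, 19 higher and 5 lower with P7C3-A20 against DMSO, and 13 higher and 10 lower with NAT against P7C3-A20. These are 7.41% and 0.00%, 14.1% and 3.70%, and 9.63% and 7.41% of the 135, beside 8.67% and 3.00%, 10.7% and 5.12%, and 9.92% and 5.89% of all genes. With the GC trend removed the 19 higher genes with P7C3-A20 were 9, which is 6.67%, beside 5.66% of all genes. Their median log2 fold changes were 0.036, 0.015 and 0.015. By voom 0, 6 and 4 of them were called, beside 0.260%, 3.38% and 1.84% of all genes, and 0 in each comparison with the GC trend removed.

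With NAT against DMSO the lowest p-values of this set belonged to Rbbp7, Setd1a and Uhrf1. Rbbp7, a histone-binding subunit shared by Polycomb and NuRD, had 144, 139.6 and 142 TPM in the NAT libraries, 132, 136 and 129.7 TPM in the P7C3-A20 libraries and 133, 125 and 125 TPM in the DMSO libraries, with a log2 fold change of 0.15 ± 0.037 (limma-trend adjusted p = 0.225). Uhrf1, which recruits Dnmt1 to newly copied DNA, had 55.5, 53.2 and 54.4 TPM in the NAT libraries, 48.1, 47.9 and 48.3 TPM in the P7C3-A20 libraries and 51.9, 48.3 and 45.3 TPM in the DMSO libraries. Like Dnmt1, its NAT libraries were above all others, with log2 fold changes of 0.16 ± 0.049 against DMSO (adjusted p = 0.284) and 0.17 ± 0.049 against P7C3-A20 (adjusted p = 0.190). Setd1a, a histone H3 lysine 4 methyltransferase, had 31.7, 31.8 and 32.7 TPM in the NAT libraries, 31.6, 31.8 and 32.9 TPM in the P7C3-A20 libraries and 27.8, 27.3 and 29.8 TPM in the DMSO libraries. It was lower in DMSO than in either compound in every library, with log2 fold changes of 0.18 with NAT and 0.18 with P7C3-A20, the second being 0.090 with the GC trend removed, and the difference between the compounds was -0.00064 with a 95% interval of -0.11 to 0.10.

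With P7C3-A20 against DMSO the lowest were Kdm5a, Mta1 and again Setd1a. Kdm5a, a relative of Kdm5b that removes the same mark, had 32.5, 30.9 and 32.5 TPM in the NAT libraries, 30.0, 29.1 and 28.7 TPM in the P7C3-A20 libraries and 33.6, 33.2 and 33.2 TPM in the DMSO libraries. Its P7C3-A20 libraries were below all others, where those of Kdm5b were above, with log2 fold changes of -0.18 ± 0.044 for Kdm5a (limma-trend adjusted p = 0.153) and 0.072 ± 0.037 for Kdm5b. Mta1, a NuRD subunit, had 77.2, 82.2 and 78.3 TPM in the NAT libraries, 84.9, 85.0 and 90.6 TPM in the P7C3-A20 libraries and 75.8, 77.8 and 78.4 TPM in the DMSO libraries and a log2 fold change of 0.16 ± 0.040 (adjusted p = 0.155), which was 0.075 with the GC trend removed. With NAT against P7C3-A20 the lowest were Smarcd3 at -0.17 ± 0.038 (adjusted p = 0.168), Whsc1, now named Nsd2, at 0.19 ± 0.048 (adjusted p = 0.182), and Gadd45g at -0.24 ± 0.060 (adjusted p = 0.186). With the GC trend removed these were -0.10, 0.11 and -0.16. Smarcd3 is a SWI/SNF subunit, Nsd2 a histone H3 lysine 36 methyltransferase, and Gadd45g a stress-induced gene linked to DNA demethylation.

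Some SWI/SNF subunits are known to be exchanged as neural progenitors become neurons, and the progenitor transcript was the more abundant of each pair compared. These are ratios of RNA between single genes and do not measure the make-up of the complex. Actl6a, the progenitor subunit, had 67.8, 65.7 and 66.1 TPM in the NAT libraries, 66.1, 62.8 and 63.6 TPM in the P7C3-A20 libraries and 65.0, 63.6 and 67.0 TPM in the DMSO libraries. Actl6b, which takes its place in neurons, had 1.81, 3.16 and 3.24 TPM in the NAT libraries, 4.38, 4.06 and 4.26 TPM in the P7C3-A20 libraries and 3.50, 2.72 and 3.21 TPM in the DMSO libraries, so that its P7C3-A20 libraries were all above the other 6 and NAT replicate 1 was the lowest. Its log2 fold change was -0.51 ± 0.16 with NAT against P7C3-A20 (limma-trend adjusted p = 0.210) and 0.34 ± 0.16 with P7C3-A20 against DMSO (adjusted p = 0.331). Without NAT replicate 1 the first was -0.32. The ratio of Actl6a to Actl6b was 37.5, 20.8 and 20.4 in the NAT libraries, 15.1, 15.5 and 14.9 in the P7C3-A20 libraries and 18.6, 23.4 and 20.8 in the DMSO libraries. All P7C3-A20 ratios were below those of the other 6 libraries. Summed levels of 10 markers of neurons and neuroblasts overlapped between the groups, at 714 to 760 TPM in the NAT libraries, 693 to 750 TPM in the P7C3-A20 libraries and 728 to 758 TPM in the DMSO libraries. Map2, at 583 to 653 TPM, made up most of each sum. With NAT against P7C3-A20 the log2 fold change was -0.24 for Rbfox3, -0.22 for Snap25, -0.16 for Gad1, -0.15 for Tubb3 and -0.096 for Gad2. It was 0.023 for Dcx, 0.042 for Syt1 and 0.061 for Map2. Stmn2 and Neurod1 did not pass the filter on low values. The lowest limma-trend adjusted p among them was 0.190, for Snap25. The part of neuronal cells in the values of Actl6b was not tested. Phf10 exceeded Dpf1 by 2.89 to 3.20 times in the NAT libraries, 2.36 to 3.25 times in the P7C3-A20 libraries and 2.63 to 2.95 times in the DMSO libraries. Its ratio to Dpf3 was 3.61 to 4.24 in the NAT libraries, 3.84 to 4.47 in the P7C3-A20 libraries and 4.09 to 4.29 in the DMSO libraries. The ratio of Ss18 to Ss18l1 was 5.12 ± 0.103 in the NAT libraries, 4.82 ± 0.215 in the P7C3-A20 libraries and 4.78 ± 0.411 in the DMSO libraries (SD, n = 3 each). In the pairs of Phf10 and of Ss18, too, the progenitor partner was the more abundant in all 9 libraries, and the 3 groups overlapped, but for the ratio of Ss18 to Ss18l1, where every NAT library was above every P7C3-A20 library.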

How the data were processed

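RNA of 9 libraries of mouse neural stem cells was sequenced with a TruSeq RNA kit from Illumina, according to the labels' protocols. They state no strand marking, so that reads from a gene and an antisense or overlapping partner are not separable here. The authors deposited TPM per gene symbol in 9 columns, each summing to 1000000. Bowtie 0.12.2 and the builds mm8 and mm9 appear in the submitters' processing notes without a role, so no coordinates of the files are given. The read counter is not given in the sources used here.

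Low TPM values rise in steps of 1 read, from which whole reads were recovered for 19302 of 19302 genes with a value (100%, tolerance 0.001) as the smallest whole numbers in the ratios of its values. Groups were compared on log2(TPM + 1) with limma-trend (limma 3.58.1, R 4.3.3), two-sided, with 9 libraries in 1 fit and 13839 genes of at least 1 TPM in at least 3 libraries. Benjamini-Hochberg adjustment ran over all these genes, and a gene was called below 0.05. The fit was also run on simulated data that held no GC trend, which cannot show how it deals with the trend seen here. Alternatives were a replicate block, removal of each library's GC trend (a spline with 5 degrees of freedom over the GC content of the longest GENCODE transcript), quantile normalization, other pseudocounts and filters, the 6 compared libraries alone, limma voom on the recovered reads and each library left out. Removal of the GC trend also brought every library to the same mean log2 value. Voom with the GC trend removed, voom with each library left out, and GC removal without P7C3-A20 replicate 3 were chosen after seeing the data. Python 3.11.15, pandas 2.3.3, numpy 2.4.6 and matplotlib 3.10.9 did the rest.

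The 43 genes, the related genes and the markers were chosen with earlier results of these data known. Values in every library are given, within each role, for the most abundant gene, for the gene of lowest p in each comparison and for 3 known pairs (Ezh1 and Ezh2, Smarca2 and Smarca4, Dnmt3a and Dnmt3b), which made 22 genes. Those of Hdac5 and Hdac7 were added after the values had been seen. Of the related genes, the 3 of lowest p in each comparison and the exchanged SWI/SNF subunits are named.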

Additional observations from a re-analysis of the deposited data

How the results depend on the processing

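The 0 calls among the 43 genes and the related genes held under GC removal, quantile normalization, the other pseudocount and filters, the 6 compared libraries and, in limma-trend, with each library left out. They did not hold under voom, which called 2 of the 43 with P7C3-A20 against DMSO and 1 with NAT against P7C3-A20, and 6 and 4 related genes. Over all genes the calls with NAT against DMSO were 4, and 1 with a pseudocount of 0.1, 2 with a minimum of 5 TPM, 36 with voom, 55 with voom and GC removal and 8 with the 6 compared libraries. With P7C3-A20 against DMSO they were 3, and 0 with either the pseudocount of 0.1 or the minimum of 5 TPM, 468 with voom, 49 with voom and GC removal and 5 with the 6 libraries. With NAT against P7C3-A20 they were 0, and 254, 65 and 5 with voom, voom and GC removal and the 6 libraries. The cause of these moves was not tested.

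Replicate numbers did not pair the libraries: the correlation of same-numbered deviations from the group means lay between -0.062 and 0.067 over the 3 comparisons. With the replicate block the calls over all genes were 3 with NAT against DMSO, 7 with P7C3-A20 against DMSO (1 with the block and GC removal together) and 1 with NAT against P7C3-A20, and 0 of the 43 genes were called.

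Leaving out each library in turn, in limma-trend and in voom together, gave 0 to 289, 0 to 872 and 0 to 726 calls over all genes in the comparisons of NAT with DMSO, P7C3-A20 with DMSO and NAT with P7C3-A20. In the same order it gave 0 to 1, 0 to 7 and 0 to 4 of the 43 genes and 0 to 2, 0 to 15 and 0 to 10 related genes. All calls among these genes came from voom, the 7 and the 4 without P7C3-A20 replicate 1, and 5 with P7C3-A20 against DMSO without DMSO replicate 3. For 28 results on single genes, 544 of 552 values from the alternatives other than voom with a library left out kept their direction and side of the threshold, and 3 were called by voom alone. Voom with a library left out gave 252 further values, of which 26, in 11 genes, were called and 0 changed sign. With P7C3-A20 against DMSO, Chd3 turned to -0.012, Hdac5 to -0.0039 and Smarca4 to -0.019 with GC removal without P7C3-A20 replicate 3, and Chd3 to -0.0017 and Smarca4 to -0.0036 in voom with GC removal. Dnmt3b rests on 38 to 89 reads per library.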
